A study of Homo sapiens with 19 samples.

Results

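The genes followed here across human liver organoids are 10 grouped as inhibitors of cyclin-dependent kinases (CDKs) and genes linked to growth arrest. They are the CIP/KIP inhibitors CDKN1A (p21), CDKN1B (p27) and CDKN1C (p57), the INK4 inhibitors CDKN2A (p16 and ARF), CDKN2B (p15), CDKN2C (p18) and CDKN2D (p19), and MDM2, GADD45A and GADD45B. They were chosen by name, and all 10 were found by gene identifier among the 32703 identifiers that the 19 deposited matrices share. The organoids came from W01, an established wild-type human pluripotent stem cell line from WiCell, and each library is 1 droplet single-cell 3′ RNA sequencing sample. Organoids in ultra-low attachment (ULA) culture were taken on day 21 (n = 3) and day 34 (n = 2). Organoids on an orbital shaker (OS) were taken on day 25 in 7 groups of 2: untreated, TGFB1 and its control, PA and its control, and OA and its control. TGFB1 (transforming growth factor β1) was given at 10 ng/ml and PA at 500 µM for 5 days, after 20 days on the shaker. The titles name OA at 500 µM, while the treatment protocol does not mention it, and neither abbreviation is spelled out. Day 34 ULA and all OS organoids had 10 further minutes of trypsin at dissociation. All libraries derive from 1 cell line, and nothing in the labels says that replicates are separate cultures, so p-values measure only the spread between these libraries.

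Cyclin-dependent kinases drive the cell cycle by phosphorylating the RB protein, which frees E2F transcription factors to switch on genes of DNA replication. INK4 proteins bind CDK4 and CDK6 and keep cyclin D away, whereas CIP/KIP proteins bind whole cyclin-kinase complexes, above all those with CDK2. In epithelial cells, transforming growth factor β is known to raise CDKN2B and CDKN1A and to lower MYC, CDC25A and ID genes. GADD45A, GADD45B and CDKN1A are genes of the stress response, and MDM2 is a ubiquitin ligase that marks other proteins for destruction. CDKN1A is known to restrain hepatocyte division after liver injury, CDKN1C is an imprinted gene of the fetus expressed from the maternal copy, and CDKN2A is the usual marker of senescent cells.

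Positions are from GRCh38 (GENCODE v44). CDKN2A (chr9:21967752-21995301) and CDKN2B (chr9:22002903-22009305) are neighbours, both on the minus strand, with the antisense RNA gene CDKN2B-AS1 overlapping CDKN2A exons. CDKN1A is at chr6:36676460-36687337, CDKN1B at chr12:12685498-12722369, CDKN1C at chr11:2883213-2885775, CDKN2C at chr1:50960745-50974634 and CDKN2D at chr19:10566460-10569059. MDM2 is at chr12:68808177-68845544, GADD45A at chr1:67685201-67688334 and GADD45B at chr19:2476122-2478259. Exons of CDKN1A, CDKN2C and MDM2 also overlap genes of the other strand, among them DINOL for CDKN1A and CPM for MDM2, and exons of MDM2 overlap a gene of the same strand, ENSG00000256664, as well. The sources used here do not state whether counting used strand, so it is not known whether reads of pairs on opposite strands were kept apart. Reads from exons that overlap on the same strand cannot be told apart, and neither can p16 and ARF, which share their 3′ end.

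CDKN2B and CDKN2A had the largest rises with TGFB1 among the members below, and CDKN1A the largest with OA. The bases before their start sites (RefSeq, GRCh38.p14) are shown with short motifs in capitals: GC boxes, the binding motif of Sp1-type factors, as GGGCGG or its reverse complement, and at 1 of the CDKN2A starts a CAGA box, the motif bound by SMAD proteins, as TGTCTG. CDKN2A has 2 starts in the table. The one at 21974857 is where the p16 transcript begins in GENCODE, and the one at 21995324 lies farther upstream, on the side of the ARF first exon.

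CDKN2B, chr9:22009306-22009555, minus strand: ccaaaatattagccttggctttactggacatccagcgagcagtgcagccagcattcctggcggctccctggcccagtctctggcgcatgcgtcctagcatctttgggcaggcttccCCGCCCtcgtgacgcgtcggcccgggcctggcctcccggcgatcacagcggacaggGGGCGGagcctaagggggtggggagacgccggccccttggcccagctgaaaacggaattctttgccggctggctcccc
CDKN2A p16 start, chr9:21974867-21975107, minus strand: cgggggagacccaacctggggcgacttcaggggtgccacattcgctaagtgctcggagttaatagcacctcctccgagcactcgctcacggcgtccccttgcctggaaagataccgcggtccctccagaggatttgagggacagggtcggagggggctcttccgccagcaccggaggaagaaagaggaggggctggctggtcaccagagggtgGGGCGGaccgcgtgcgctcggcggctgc
CDKN2A upstream start, chr9:21995325-21995481, minus strand: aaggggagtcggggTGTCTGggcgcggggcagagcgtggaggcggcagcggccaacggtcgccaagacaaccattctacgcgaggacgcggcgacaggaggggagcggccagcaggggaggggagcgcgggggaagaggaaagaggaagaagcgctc
CDKN1A, chr6:36678560-36678709, plus strand: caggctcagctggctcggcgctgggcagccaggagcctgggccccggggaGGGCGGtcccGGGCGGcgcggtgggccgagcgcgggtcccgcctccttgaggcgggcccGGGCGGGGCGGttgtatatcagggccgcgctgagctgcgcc

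Over the 250 bases before the start, searched on both strands, CDKN2B held 2 GC boxes (from -134 and from -78) and CDKN1A held 4, the last 2 overlapping by 1 base. Of all 35116 promoters in the same table, 42.6% held a GC box and 13.6% a CAGA box (CAGACA or its reverse complement). At its upstream start CDKN2A held 1 CAGA box (from -143) and no GC box, and at the p16 start 1 GC box (from -37) and no CAGA box. Among the 5 other members with an entry, CDKN1B held 1 GC box, CDKN2D held 2, and GADD45B held a TATA box from -31 (TATAAA, 10.7% of promoters). MDM2 has 4 starts in the table, and the E2F motif TTTGGCGC stood at the 2 upstream ones and a CAGA box at the other 2, with 1 GC box at each but the first. CDKN2C has 3 starts, with no motif at the first, 5 GC boxes at the second, and 1 GC box and 1 CAGA box at the third. The other E2F motif searched, TTTCCCGC, was at no start of these members. The E2F motifs occur in 0.55% and 1.39% of promoters. GADD45A and CDKN1C were not matched in the table. A match is a run of letters only and was not tested for binding.

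Cells were kept if 500 or more genes were detected in them and mitochondrial genes took no more than 20% of their counts, so that 120240 of 138053 barcodes remained, 3089 to 12427 a library, with median UMI counts (unique molecules) per cell of 1310 to 14304.5. The shallowest libraries were TGFB1 control replicate 1 (median 1310) and PA control replicate 1 (1747). Any pair of libraries shared 1 to 32 barcodes, at most 0.581% of the smaller library. Each gene's level is given in CPM, UMI counts per 1000000 UMIs, over a library's cells, or over 2 classes of its cells. EPCAM-positive cells had at least 1 UMI of the epithelial gene EPCAM and none of COL1A2 or COL3A1, and collagen-positive cells the reverse. Cells with both kinds of marker entered neither class, which left out 15979 of 34289 ULA cells (29.8% to 59.7% a library) and 11346 of 85951 OS cells (1.93% to 32.0%). That share was 1.93% and 5.24% in TGFB1 controls against 15.8% and 8.65% with TGFB1. It was 26.7% and 32.0% in OA controls against 5.60% and 4.47% with OA, so the classes left out different shares of cells in treated and control libraries. Cells with neither kind were left out too, 4300 of 9615 in TGFB1 control replicate 1, the shallowest library, against 418 of 8505 in replicate 2 and 443 and 289 with TGFB1. Epithelial markers were present in every group (KRT8 1347 to 2577 CPM in the TGFB1 libraries and their controls), whereas the leukocyte gene PTPRC was at most 0.0572 CPM in TGFB1, OA and their controls. The sum of 7 immune markers, PTPRC among them, was 200 to 228 CPM in TGFB1 controls and 33.4 to 45.1 with TGFB1, where LYZ fell (log2 -2.48) and CSF1R rose (2.89). It was 427 to 579 CPM in OA controls and 529 to 544 with OA. There CD68, a lysosomal gene among the 7 markers, rose (log2 2.90, adjusted p = 2.75e-05). Over whole libraries of the series PTPRC was at most 0.137 CPM and CD14 at most 0.100. The highest immune sum of a library was 803 CPM in EPCAM-positive cells, 597 in all cells and 165 in collagen-positive cells. For CD68 these values were 86.7, 82.3 and 4.91 CPM. Whether immune cells carried the sum was not tested, nor was its part in the members' changes. ALB, the major hepatocyte protein gene, stood at 3.14 and 3.35 CPM in TGFB1 controls and 0.102 and 0.136 with TGFB1, and at 7.29 and 22.0 CPM in OA controls and 301 and 687 with OA. The ULA, TGFB1 with PA, and OA with untreated libraries were processed as 3 sets with 58721, 33538 and 36601 listed genes, so a level that differs between sets cannot be told apart from processing or culture.

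Across the 9 groups, the INK4 genes at chromosome 9 varied most and MDM2 least. Mean CDKN2B ran from 5.93 CPM in day 21 ULA to 336 with TGFB1, a 56.6-fold range, and mean CDKN2A from 2.01 in day 34 ULA to 110 with TGFB1, a 54.9-fold range. TGFB1 libraries held the highest mean, with both libraries above every library of the next group, for CDKN2A, CDKN2B, CDKN2D (22.3 CPM), GADD45A (137) and GADD45B (167).

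CDKN1A had another order. OA was highest (173 ± 18.1 CPM, SD, n = 2), then TGFB1 (125 ± 7.75), both separate from the group below them. Untreated, PA and PA control overlapped each other at means of 87.5, 85.6 and 82.9, and day 21 ULA was lowest at 26.6 ± 10.6 (n = 3). CDKN1C, the p57 gene, was highest with PA (560 ± 23.2), whose range overlapped that of TGFB1 control (526 ± 44.98), and lowest in day 21 ULA (127). CDKN1B ran from 4.34 with PA to 28.9 in untreated OS, where its range overlapped that of day 21 ULA (26.0). MDM2 moved over only 2.09-fold, from 43.8 with PA to 91.4 in untreated OS. CDKN2C was scarce, with group means of 0.183 to 1.09 CPM from 1 to 129 UMIs a library. These are 3′ counts of separate genes, so levels are compared within a gene, not between genes.

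**Figure D1:**
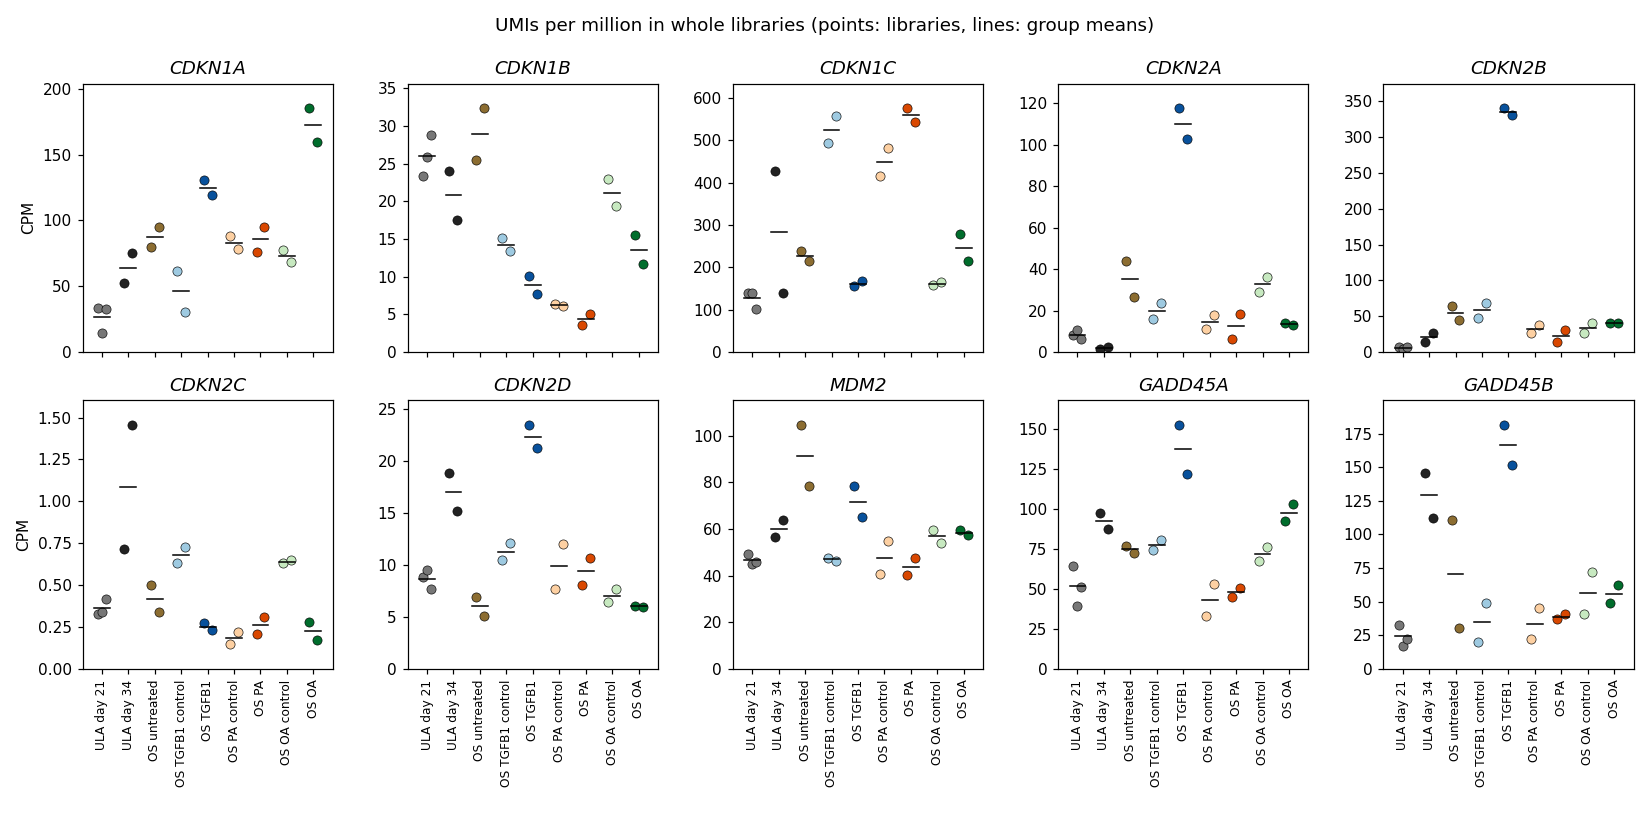
CPM of each of the 10 genes in every library, 1 point a library, grouped by the 9 groups. The 2 TGFB1 libraries stand above all others for CDKN2A and CDKN2B, and the 2 OA libraries for CDKN1A.

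TGFB1 raised inhibitors of both families and lowered CDKN1C. CDKN2B, the INK4 gene best known as a target of this cytokine, was at 48.1 and 69.1 CPM in controls and 341 and 330 with TGFB1. CDKN2A was at 15.8 and 23.5 in controls and 118 and 103 with TGFB1. For both, every treated library was above every control library. Their log2 fold changes were 2.69 ± 0.34 (SE, 95% interval 1.96 to 3.42, adjusted p = 0.000109) and 2.66 ± 0.41 (1.77 to 3.54, adjusted p = 0.000557) by edgeR's quasi-likelihood test with Benjamini-Hochberg adjustment over all genes, used for all p-values here. CDKN2D rose by less, from 10.4 and 12.1 to 23.4 and 21.2 CPM (log2 1.17 ± 0.23, adjusted p = 0.00338). CDKN2C went from 0.633 and 0.727 to 0.273 and 0.230 CPM, on 9 to 38 UMIs a library, and did not pass (log2 -1.27 ± 0.44, adjusted p = 0.0555).

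Among CIP/KIP genes CDKN1A rose and CDKN1C fell. CDKN1A was at 61.8 and 30.5 CPM in controls and 130 and 119 with TGFB1 (log2 1.67 ± 0.27, adjusted p = 0.000862). CDKN1C went from 494 and 558 to 155 and 168 CPM (log2 -1.52 ± 0.21, adjusted p = 0.000246). The groups did not overlap for either gene, and the control libraries differed from each other by more for CDKN1A than for CDKN1C. The share of all genes whose groups do not overlap was not counted, in this or any other comparison. CDKN1B, which holds cells in quiescence and is controlled largely through protein decay, was at 15.2 and 13.4 against 10.2 and 7.70 CPM and was not called (log2 -0.47 ± 0.26, adjusted p = 0.206).

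The GADD45 stress genes and MDM2 rose as well. GADD45B, an early target of SMAD signalling, went from 20.2 and 49.2 to 182 and 152 CPM (log2 2.41 ± 0.54, adjusted p = 0.00646). GADD45A, which binds PCNA and CDK1, went from 74.5 and 80.3 to 153 and 122 CPM (log2 1.02 ± 0.21, adjusted p = 0.0045). MDM2 went from 47.6 and 46.2 to 78.2 and 65.2 CPM (log2 0.81 ± 0.20, adjusted p = 0.0110). In all, 7 of the 10 genes rose and 1 fell, where 22.2% of 19366 tested genes were called, 10.9% higher and 11.3% lower. The median log2 fold change was 1.09 over the 10 genes and -0.05 over all genes. Some calls rested on single libraries: without control replicate 1, MDM2 (0.73, adjusted p = 0.0749) and GADD45B (1.85, adjusted p = 0.0632) were not called, while without control replicate 2 the GADD45B change was 3.35, and without TGFB1 replicate 1 MDM2 (0.67, adjusted p = 0.129) and GADD45A (0.84, adjusted p = 0.0688) were not called. Scaling by total counts moved the median of all genes from -0.05 to -0.24, and MDM2 then missed the threshold (0.61, adjusted p = 0.0529) while CDKN2C passed it (-1.44, adjusted p = 0.0398).

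**Figure D2:**
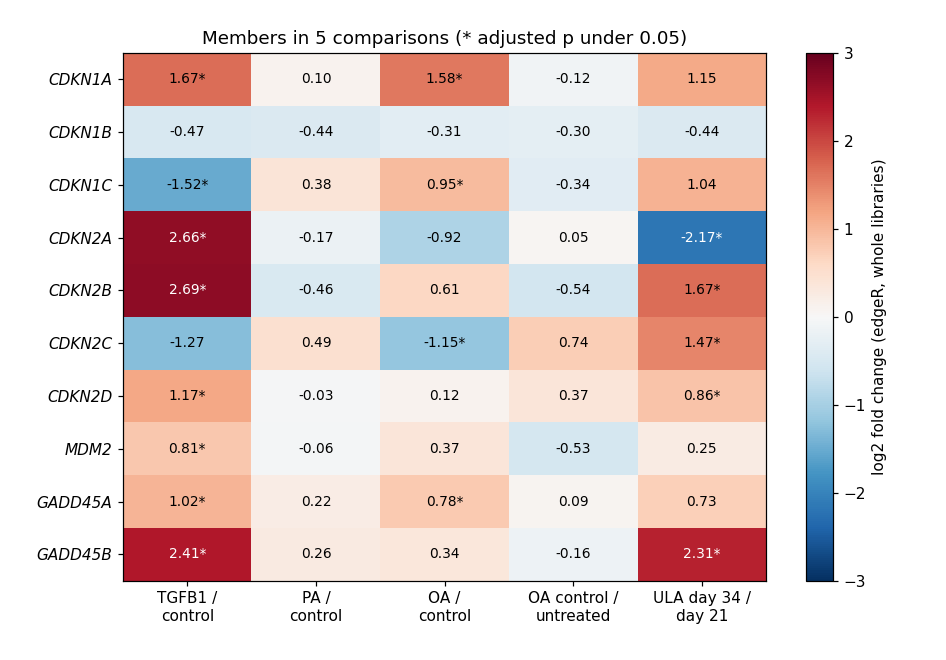
Log2 fold change (colour and number) of the 10 genes in 5 whole-library comparisons, with a star where the adjusted p is under 0.05. The TGFB1 column holds 8 stars, the OA column 4, the day 34 against day 21 ULA column 5, and the PA and OA control columns none. Of all genes tested, 22.2% were called for TGFB1, 43.3% for OA, 15.6% for day 34, 0.0465% for PA and 0.573% for OA control.

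The cell makeup also moved with TGFB1. Of 7 mesenchymal markers 3 were higher and none lower, with a summed level of 600 to 618 CPM in controls and 1480 to 1837 with TGFB1, and of 8 hepatocyte markers 5 were lower and 1 higher. In sums over whole libraries, more cells of a type and more RNA per cell cannot be told apart. Within EPCAM-positive cells (4690 and 7308 in controls, 4099 and 5358 with TGFB1) the same 8 genes were called in the same directions, where 25% of 17527 genes were called (12.3% higher, 12.7% lower). CDKN2B stood at 56.3 and 67.2 against 368 and 368 CPM (log2 2.76 ± 0.31, adjusted p = 2.94e-05), and CDKN2A at 18.6 and 22.3 against 125 and 113 (2.71 ± 0.35, adjusted p = 8.29e-05). CDKN1A stood at 63.4 and 28.6 against 134 and 129 CPM (1.76 ± 0.29, adjusted p = 0.000545), and CDKN1C at 486 and 592 against 170 and 183 (-1.42 ± 0.24, adjusted p = 0.000617). Neither pair of groups overlapped, as in whole libraries. MDM2 again missed the threshold without TGFB1 replicate 1 (0.79, adjusted p = 0.0699), and GADD45B moved from 2.60 to 3.68 without control replicate 2. In these cells COL1A1, a collagen gene not used to choose them, rose from 25.4 to 376 CPM (log2 4.13), so their mesenchymal marker level moved with the treatment too, and its part in the members' changes was not tested.

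Cells in cycle were scarce with TGFB1. EPCAM-positive cells with at least 1 UMI of MKI67 or TOP2A, genes of dividing cells, made up 12.8% and 12.4% in controls and 0.683% and 0.355% with TGFB1. With each cell thinned to 1000 UMIs the shares were 10.2% and 5.97% against 0.245% and 0.0938%. Among EPCAM-positive cells without such a UMI the members' changes were about as large. CDKN2B changed there by log2 2.59, CDKN2A by 2.67, CDKN1A by 1.63, CDKN2D by 1.58 and CDKN1C by -1.58. The same 8 genes were called there, where 25% of 17267 genes were. This fit, used for OA below too, was not among those planned. At low depth a cell without such a UMI may still be in cycle, and these cells had a median of 1493 UMIs in TGFB1 control replicate 1.

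In collagen-positive cells no member was called. These cells numbered 439 and 333 in controls and 513 and 660 with TGFB1, so counts per library were smaller. CDKN1A stood at 108 and 56.0 CPM in controls and 58.8 and 48.8 with TGFB1, overlapping, with a log2 fold change of -0.25 (95% interval -0.85 to 0.35, adjusted p = 0.71). CDKN2B stood at 55.1 and 101 against 181 and 128 CPM (1.15, interval 0.13 to 2.17, adjusted p = 0.328), and CDKN2A at 24.2 and 36.2 against 75.1 and 49.8 (1.20, interval 0.12 to 2.29, adjusted p = 0.336). GADD45B stood at 26.9 and 40.9 against 81.9 and 55.8 CPM (1.18, interval 0.26 to 2.10, adjusted p = 0.294). The groups did not overlap for these last 3 genes, nor for 5 of the 10 members in all. Between OA control and untreated whole libraries they did not for 6 of 10 members, where none was called. As the share of all genes without overlap was not counted, these counts are no result about the members. With 1 library left out the changes ran from 0.69 to 1.95 for CDKN2B, 0.86 to 1.82 for CDKN2A and 0.83 to 1.81 for GADD45B, lowest without control replicate 1 and highest without control replicate 2, and from -0.54 to 0.03 for CDKN1A, none called. No member of the 9 tested was called by edgeR, 3 had an unadjusted p under 0.05, and 0.0211% of 14189 genes were called (0.0141% higher, 0.00705% lower). With no low count filter 3 members were called, where 1.9% of genes were. With cells of both kinds of marker counted in both classes, 4 members were called, where 4.14% of genes were, and the CDKN1A change turned to 0.86 (adjusted p = 0.0972), the sign it had in EPCAM-positive cells.

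The difference between the classes was tested directly, as the interaction of class and treatment with the library as block. For CDKN1A the log2 change in collagen-positive minus that in EPCAM-positive cells was -2.05 ± 0.22 (95% interval -2.51 to -1.58, adjusted p = 1.27e-06). That of GADD45B differed by -1.34 ± 0.25 (adjusted p = 0.00103), of CDKN2B by -1.54 ± 0.29 (adjusted p = 0.00113) and of CDKN2A by -1.46 ± 0.34 (adjusted p = 0.00746), and that of CDKN1C by 1.05 ± 0.25 (adjusted p = 0.0095). These 5 members passed, 1 with a higher and 4 with a lower value in collagen-positive cells, where 6.32% of 18747 genes did (2.61% higher, 3.71% lower). CDKN1A and GADD45B were called with any 1 TGFB1 or control library left out. With cells of both markers in both classes, which then share those cells, the differences shrank to -0.93 for CDKN1A (adjusted p = 0.00431), -0.76 for GADD45B (adjusted p = 0.0310) and -0.90 for CDKN2A (adjusted p = 0.0449), and CDKN2B (-0.81, adjusted p = 0.101) and CDKN1C (0.28, adjusted p = 0.553) were not called. Without control replicate 2, CDKN2A (-1.10, adjusted p = 0.374), CDKN2B (-1.01, adjusted p = 0.181) and CDKN1C were not called, CDKN2A missed the threshold without TGFB1 replicate 2 (adjusted p = 0.0758), and CDKN1C missed it without either TGFB1 library. KRT8 was found in collagen-positive cells at 448 to 708 CPM in controls and 620 to 695 with TGFB1, and the part of cells or RNA of the other class in these differences was not tested.

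**Figure D3:**
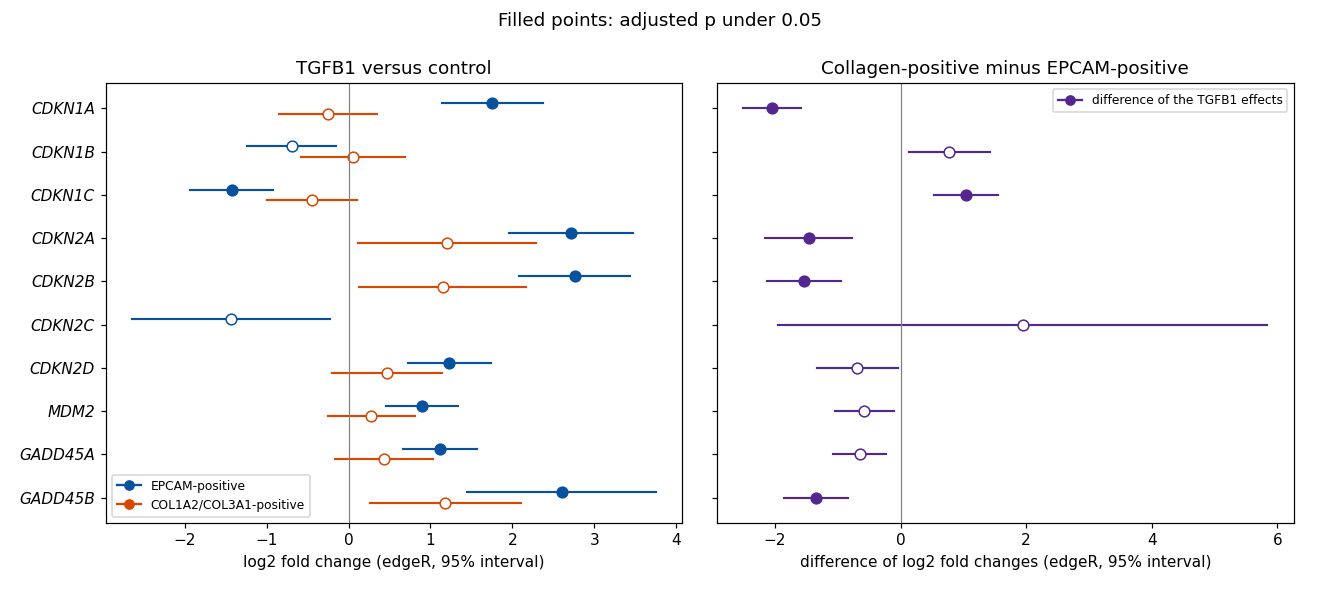
The members with TGFB1 against control, in EPCAM-positive and in collagen-positive cells (2 libraries a group). CDKN1A is higher with TGFB1 in EPCAM-positive cells (134 and 129 against 63.4 and 28.6 CPM), while in collagen-positive cells the treated and control libraries overlap.

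Genes around the inhibitors in the cell cycle moved with TGFB1 as follows in whole libraries. Of 23 genes of S phase and mitosis 22 fell, with a median log2 fold change of -2.97 against -0.05 over all genes, among them MKI67 (-4.21 ± 0.25) and the kinetochore gene CENPF (-3.44 ± 0.21). Of 12 cyclins and kinases 6 fell, such as CDK1 (-4.10 ± 0.21) and CCNE2 (-3.24 ± 0.32), a cyclin that works with CDK2, and 1 rose, the cyclin CCND3 (0.81 ± 0.21), which is named because it alone did. In the RB and E2F family 4 of 10 fell, including the activator E2F1 (-3.80 ± 0.24) and the repressor E2F8 (-4.63 ± 0.39), and none rose.

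Of 5 cytostatic targets of the TGF-β pathway, CDC25A (-1.84 ± 0.31), a phosphatase that activates CDK2, and ID2 (-1.53 ± 0.29), an inhibitor of differentiation factors, fell and none rose. In EPCAM-positive cells ID3 fell too (-1.30 ± 0.35, adjusted p = 0.016). Among 10 regulators of the members, the transcription factor FOXO1, which can activate CDKN1A and CDKN1B, rose (1.21 ± 0.21), and SKP2, which marks p27 for decay, and the Polycomb gene CBX7, a repressor of the CDKN2A locus, fell (-1.31 ± 0.30 and -1.20 ± 0.38).

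Genes near CDKN2A and CDKN1C also changed, and all 7 called ones are named, the risers having been picked after their values were seen. CDKN2B-AS1 rose with its neighbours (1.98 ± 0.40, adjusted p = 0.00363), and MTAP, on the other side of CDKN2A, rose by 0.66 ± 0.22 (adjusted p = 0.0438). Around the imprinted CDKN1C, the antisense RNA KCNQ1OT1 (-1.27 ± 0.24), KCNQ1 (-2.64 ± 0.41) and IGF2 (-3.65 ± 0.54) fell, while PHLDA2 (1.74 ± 0.36) and SLC22A18 (0.92 ± 0.28) rose. Of the 8 neighbours tested, 4 rose and 3 fell.

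OA changed CDKN1A most among the members, and neither gene of the chromosome 9 pair passed the test in whole libraries. CDKN1A was at 77.3 and 68.7 CPM in controls and 185 and 160 with OA (log2 1.58 ± 0.27, 95% interval 0.99 to 2.16, adjusted p = 0.000493). CDKN1C went from 158 and 165 to 279 and 214 CPM (0.95 ± 0.21, adjusted p = 0.00256), and GADD45A from 67.3 and 76.5 to 92.1 and 103 (0.78 ± 0.21, adjusted p = 0.00943). The treated libraries were above the controls for these 3 genes. CDKN2B was at 27.3 and 40.6 against 40.1 and 40.9 CPM, overlapping (0.61, adjusted p = 0.142). Its change was positive in all 12 alternatives (0.26 to 0.83) and called in 1, the fit of only the libraries compared (0.56, adjusted p = 0.0200), which also called it in EPCAM-positive cells (0.50, adjusted p = 0.0243, 1 of 15 alternatives). CDKN2A was at 28.8 and 36.5 against 13.999 and 13.2, lower in both treated libraries but not called (-0.92 ± 0.39, adjusted p = 0.0740), and 5 of 12 alternatives called it lower (-1.26 to -0.83 over all 12, lowest adjusted p = 0.000902). CDKN2C was called lower (-1.15 ± 0.42, adjusted p = 0.0409), at 0.630 and 0.649 against 0.278 and 0.173 CPM. With 3 members higher and 1 lower, 43.3% of genes were called in this comparison (21.7% higher, 21.6% lower).

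These calls were less firm than that of CDKN1A. CDKN2C lost its call with any 1 library of the comparison left out, GADD45A without either control library or OA replicate 2, and CDKN1C without OA replicate 1 (0.73, adjusted p = 0.0505). Scaling by total counts moved the median of all genes from -0.08 to -0.42 and ended the call of GADD45A (0.44, adjusted p = 0.13), while CDKN1B (-0.64, adjusted p = 0.0452) and CDKN2A (-1.26, adjusted p = 0.0172) were then called lower. It split all calls into 2628 higher and 5952 lower, against 4197 and 4181.

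Collagen-positive cells made up 35.3% and 37.5% of control cells and 1.94% and 1.18% with OA, and all 7 mesenchymal markers fell, from a sum of 2413 to 3980 CPM to 99.3 to 127. Within EPCAM-positive cells, where 35.9% of genes were called (19.1% higher, 16.8% lower), CDKN1A was at 83.2 and 75.7 CPM in controls and 190 and 163 with OA (log2 1.38 ± 0.28, adjusted p = 0.00196). CDKN1C was at 173 and 188 against 286 and 220 CPM (0.73 ± 0.23, adjusted p = 0.0255), and CDKN2A at 28.8 and 36.2 against 14.2 and 13.1 (-1.01 ± 0.34, adjusted p = 0.0309). No range overlapped, but the call of CDKN2A was lost with any 1 of the 4 libraries left out (adjusted p = 0.0812 to 0.150), and that of CDKN1C in all such fits but the one without OA replicate 2. Scaling by total counts also ended the CDKN1C call (0.49, adjusted p = 0.122). GADD45A was at 82.8 and 102 against 94.9 and 104 CPM there, overlapping (0.35, adjusted p = 0.205). OA libraries also differed in hepatocyte markers, of which 6 of 8 rose in these cells and SERPINA1 fell (log2 -1.11, adjusted p = 0.0329), and in dividing cells (MKI67 or TOP2A in 23.3% and 20.1% against 8.46% and 10.95%, or 7.04% and 6.50% against 3.62% and 4.27% at 1000 UMIs). In EPCAM-positive cells without MKI67 or TOP2A the changes were 1.37 for CDKN1A, 0.62 for CDKN1C and -1.25 for CDKN2A, all called, where 36.6% of genes were. Of 7 mesenchymal markers, 5 of them tested, COL1A1 (log2 -2.50, from 30.2 and 41.2 to 5.10 and 5.55 CPM) and PDGFRA (-3.09) fell in EPCAM-positive cells with OA and LUM rose (2.74), and CD68 rose there too (2.42). Their part in the members' changes was not tested.

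In whole OA libraries 21 of 23 S phase and mitosis genes and 8 of 12 cyclins and kinases fell, where 21.6% of all genes were called lower. Among them were CDK6 (-2.21 ± 0.24), CDK4 (-1.65 ± 0.29) and CCND2 (-1.53 ± 0.24), partners in the step that INK4 proteins block. Collagen-positive cells were scarcer with OA, so in these sums a change of cell makeup and one of RNA per cell cannot be told apart. MYC (-1.70 ± 0.40) and CDC25A (-1.35 ± 0.30) fell and ID2 rose (1.26 ± 0.29). Of 12 other antiproliferative genes 7 rose and 4 fell, among them TXNIP (1.36 ± 0.24), an inhibitor of thioredoxin and glucose uptake, and CDKN3 (-1.47 ± 0.25), a phosphatase of dividing cells.

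Since CDKN1A rose with both agents, their changes in EPCAM-positive cells were set against each other in the same fit, each relative to its own control libraries. This comparison was chosen after the values were seen. The TGFB1 change exceeded the OA change by log2 3.72 ± 0.48 for CDKN2A (adjusted p = 0.000107) and 2.27 ± 0.42 for CDKN2B (adjusted p = 0.00158), and the difference was -2.15 ± 0.33 for CDKN1C (adjusted p = 0.00038), which rose with OA and fell with TGFB1. For CDKN1A the difference was 0.37 (95% interval -0.47 to 1.22, adjusted p = 0.529), which leaves room for a change up to 1.22 log2 units larger with TGFB1. MDM2 passed narrowly (0.81, adjusted p = 0.0499) and was not called in 16 of the 18 alternatives run (0.66 to 0.95 over all 18, adjusted p = 0.0323 to 0.199). In this contrast 25.4% of genes were called (11.5% higher, 13.9% lower). The agents were given in separate experiments at different concentrations.

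PA gave no call among the members, where 0.0465% of genes were called, all higher. CDKN1A was at 88.0 and 77.9 CPM in controls and 76.3 and 94.9 with PA, overlapping, with a log2 difference of 0.10 (95% interval -0.48 to 0.67). CDKN1C was at 415 and 482 against 577 and 544 CPM, higher in both treated libraries but not called (0.38, interval -0.07 to 0.82). CDKN2B was at 26.3 and 38.3 against 14.7 and 30.2 CPM, and CDKN2A at 11.2 and 17.7 against 6.39 and 18.3, both overlapping. The intervals leave a change of CDKN1A beyond 0.67 log2 units outside. All adjusted p-values by edgeR were 1, and no member had an unadjusted p under 0.05. In EPCAM-positive cells, where 0.103% of genes were called, CDKN2B alone had one (log2 -0.71, unadjusted p = 0.0356), and its change ran from -1.18 without PA replicate 2 to -0.36 without PA replicate 1. None of the genes in the cell cycle or neighbour lists was called with PA.

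OA control libraries were also compared with untreated OS libraries. No member was called by edgeR, with 0.573% of genes called (0.0826% higher, 0.491% lower), and 1 member had an unadjusted p under 0.05. That was MDM2, at 105 and 78.2 CPM untreated and 59.7 and 54.0 in OA controls (log2 -0.53 ± 0.20, adjusted p = 0.244). GADD45B differed widely within the untreated pair, at 111 and 30.4 CPM.

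In ULA culture the members differed between day 21 and day 34, with 5 of 10 called 4 higher and 1 lower, where 15.6% of 22261 genes were (8.43% higher, 7.19% lower). GADD45B was at 32.7, 17.0 and 22.5 CPM on day 21 and 146 and 112 on day 34 (log2 2.31 ± 0.27, adjusted p = 0.00341). The chromosome 9 pair went in opposite directions: CDKN2A fell, from 8.10, 10.8 and 6.22 to 1.45 and 2.56 CPM (-2.17 ± 0.36, adjusted p = 0.0102), and CDKN2B rose, from 6.52, 4.34 and 6.93 to 14.5 and 26.4 (1.67 ± 0.31, adjusted p = 0.0147). The days did not overlap for any of these. CDKN2D rose (0.86 ± 0.19, adjusted p = 0.0239), from 7.66 to 9.47 CPM over the day 21 libraries to 18.8 and 15.2, as did CDKN2C (1.47 ± 0.39, adjusted p = 0.0456), from 0.328 to 0.415 to 0.713 and 1.46.

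CDKN1A was at 33.1, 14.4 and 32.4 CPM on day 21 and 52.2 and 75.5 on day 34, and GADD45A at 64.1, 39.5 and 51.2 against 97.3 and 87.5. Both were higher in each day 34 library, but not called (1.15 ± 0.36, adjusted p = 0.0698, and 0.73 ± 0.21, adjusted p = 0.0594). Of 12 alternatives 5 called CDKN1A higher (0.84 to 1.63 over all 12, lowest adjusted p = 0.00146) and 4 called GADD45A higher (0.56 to 0.91, lowest adjusted p = 0.0186). CDKN1C differed between the day 34 libraries themselves, at 427 and 139 CPM against 140, 139 and 101 on day 21. The GADD45B call was kept with any 1 library left out. CDKN2A lost its call without day 21 replicate 1 (adjusted p = 0.0533), CDKN2B and CDKN2D without any 1 day 21 library, and CDKN2C in all such fits but the one without day 34 replicate 1, at 0.85 without day 34 replicate 2 (adjusted p = 0.128).

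Beside these changes, 8 of 23 S phase and mitosis genes fell and none rose, among them CDC20 (-1.92 ± 0.23), and CDK1 fell (-1.43 ± 0.21) while CCND3 again was the 1 cyclin that rose (1.00 ± 0.18). H19 (1.69 ± 0.32) and IGF2 (1.58 ± 0.31), imprinted genes on the same chromosome as CDKN1C, rose. Of 8 hepatocyte markers 5 were lower on day 34, with a summed level of 2044 to 2263 CPM on day 21 and 83.8 and 770 on day 34. Day 34 replicate 1 had 23 EPCAM-positive cells, too few for a test within that class, and the day 34 organoids had the longer trypsin step, so day, makeup and dissociation cannot be told apart.

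Within OS libraries, levels of most members differed between the 2 cell classes, as did those of 56.5% of genes. In the 8 untreated and control OS libraries, with the library as block, GADD45A was lower in collagen-positive cells in 8 of 8 (median 33.0 against 82.2 CPM, log2 -1.36 ± 0.08, adjusted p = 1.54e-13). CDKN1C was lower in 8 of 8 (median 164 against 367 CPM, -1.18 ± 0.09, adjusted p = 2.41e-11), whereas CDKN2D was higher in 8 of 8 (median 10.9 against 6.32 CPM, 0.68 ± 0.11, adjusted p = 1.38e-05). GADD45B was higher in 7 of 8 (0.52 ± 0.09, adjusted p = 1.33e-05). So the GADD45 pair ran in opposite directions between the classes. CDKN1A (-0.44 ± 0.08), CDKN2B (-0.38 ± 0.11), MDM2 (-0.33 ± 0.08) and CDKN1B (-0.32 ± 0.11) were called lower. CDKN1A and CDKN2B were lower in 6 of 8 libraries, and CDKN1B and MDM2 in only 4 of 8. CDKN1B missed the threshold without TGFB1 control replicate 2, PA control replicate 2 or OA control replicate 1 (adjusted p = 0.0536 to 0.0880), and MDM2 without PA control replicate 2 (adjusted p = 0.0558). CDKN2A was not called (0.14, 95% interval -0.11 to 0.40). With 8 of 10 members called, 56.5% of genes were (24.2% higher, 32.3% lower). With cells of both markers in both classes 5 members were called, where 48.6% of genes were, and CDKN1A (-0.090), CDKN1B (-0.090) and CDKN2B (-0.069) were not. CDKN1C (-0.65), GADD45A (-0.52), CDKN2D (0.29), GADD45B (0.25) and MDM2 (-0.16) stayed called at smaller sizes. KRT8 stood at 285 to 708 CPM in collagen-positive cells of these libraries. Collagen-positive cells also held fewer UMIs, such as a median of 4062 against 8290 in OA control replicate 1. The part of depth or of RNA of the other class was not tested.

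In ULA culture (4 libraries with enough cells of each class, 52.8% of genes called, 25.6% higher and 27.2% lower) 8 members were called. The estimates averaged day 21 and day 34 with equal weight, and day 34 rested on replicate 2 alone. CDKN1A was 6.69 to 45.8 CPM in collagen-positive and 25.0 to 97.1 in EPCAM-positive cells, lower in 4 of 4 (log2 -1.88 ± 0.12, adjusted p = 8.43e-12). CDKN2A was higher in collagen-positive cells in 4 of 4 (2.97 to 19.9 against 1.75 to 6.09 CPM, 1.03 ± 0.26, adjusted p = 0.00178). MDM2 (-0.76 ± 0.09) and GADD45A (-0.94 ± 0.08) were lower in 4 of 4. CDKN1C (-0.76 ± 0.08), CDKN2B (-0.59 ± 0.15), CDKN2D (0.54 ± 0.13) and GADD45B (0.22 ± 0.09, adjusted p = 0.046) were called in the same direction as in OS, each in 3 of 4 libraries. GADD45B lost its call without day 21 replicate 1 (0.26, adjusted p = 0.0884) and in 5 of 12 alternatives. Without day 34 replicate 2, CDKN1A was at -2.60, CDKN2D at 1.25, GADD45B at 0.67 and CDKN1C at -0.28, all called. Putting cells with both kinds of marker, 7415 of 12427 in day 34 replicate 2, into both classes turned GADD45B to -0.091 (adjusted p = 0.191). It also moved CDKN1A to -0.61, CDKN1C to -0.15, MDM2 to -0.24, GADD45A to -0.27, CDKN2B to -0.28, CDKN2D to 0.24 and CDKN2A to 0.69, all called, where 42.9% of genes were. CDKN2B was called in every alternative but DESeq2 (-0.56, adjusted p = 0.101). Collagen-positive cells had fewer UMIs than EPCAM-positive cells in these libraries, with day 21 medians of 8434 to 8986 against 16064 to 18162.5, and the part of depth was not tested.

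Cells in cycle could be set against the others within EPCAM-positive cells of 12 OS libraries, the TGFB1 libraries having only 28 and 19 cells with an MKI67 or TOP2A UMI. CDKN2B, CDKN1C, CDKN1A and GADD45B were lower in cycling cells in 12 of 12 libraries. CDKN2B had a median of 19.8 CPM in cycling and 43.0 in other cells (log2 -1.41 ± 0.14, adjusted p = 1.13e-07), and CDKN1C of 191 and 382 (-1.02 ± 0.06, adjusted p = 7.83e-11). CDKN1A had a median of 72.7 against 94.8 CPM (-0.55 ± 0.09, adjusted p = 5.16e-05), and GADD45B of 31.3 against 39.7 (-0.62 ± 0.08, adjusted p = 6.55e-06). CDKN2A (-0.84 ± 0.14) and GADD45A (-0.34 ± 0.07) were lower in 11 of 12.

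The other inhibitors ran the other way. CDKN1B was higher in cycling cells in 12 of 12 libraries (median 26.0 against 12.6 CPM, 0.57 ± 0.11, adjusted p = 0.000375) and CDKN2D in 11 of 12 (8.73 against 6.20, 0.83 ± 0.15, adjusted p = 0.000135). CDKN2C was too scarce for the test, with 63 UMIs over all cycling cells and 19 over the far more numerous others, and its level was higher in cycling cells in 11 of 12 libraries. MDM2 did not separate the cells (-0.05, 95% interval -0.18 to 0.07, adjusted p = 0.497). Of all genes 46.3% were called (18.5% higher, 27.8% lower), against 8 of the 9 members tested. Cycling cells held more UMIs, from 2112 against 1493 in TGFB1 control replicate 1 to 21828 against 14787 in OA control replicate 2, and the part of depth was not tested.

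In 4 ULA libraries, where 17.4% of genes were called (9.32% higher, 8.04% lower), CDKN1A (-0.44 ± 0.06), CDKN1C (-0.62 ± 0.07), GADD45B (-0.52 ± 0.13) and MDM2 (-0.29 ± 0.08) were lower and CDKN1B (0.68 ± 0.13) higher in cycling cells. The calls of CDKN1A and CDKN1C held with any 1 library left out. That of MDM2 was lost without day 21 replicate 1 (-0.21, adjusted p = 0.249) or 3 (-0.24, adjusted p = 0.187), and in 5 of 11 alternatives in all. GADD45B lost its call without day 21 replicate 1 or 3 or day 34 replicate 2 (adjusted p = 0.0728 to 0.117), and CDKN1B without day 21 replicate 3 (0.61, adjusted p = 0.0578). CDKN2B (-0.64, adjusted p = 0.0971) and CDKN2A (-0.45, adjusted p = 0.132) were lower in 3 of 4 without a call. CDKN2B was not called in 9 of 11 alternatives, was called lower in the rest, and ran from -0.88 to -0.33 with 1 library left out. CDKN2A was called in none of the 11. CDKN2D, higher in 3 of 4 libraries, and GADD45A, lower in 3 of 4, were not called in ULA as they were in OS. Over the 11 alternatives CDKN2D ran from 0.11 to 0.53, with no call in all 11. GADD45A ran from -0.34 to -0.14, with no call in 10. In OS cycling cells 8 of 12 cyclins and kinases and 6 of 10 RB and E2F genes were higher, where 18.5% of all genes were. These cells were chosen by genes of dividing cells, so this follows from the choice and is no finding.

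Over the 14 OS libraries, genes whose level ran like that of 3 members were sought among 8736 genes, by Pearson correlation of log2(CPM + 1). For CDKN1A, those named are from the 5 most alike: KCNK6 (r = 0.900), MIR22HG (0.899) and SLC17A5 (0.896). For CDKN2B the most alike were ASAP2 (0.956), DESI2 (0.953) and FHOD3 (0.952), and without the 2 TGFB1 libraries these fell to 0.797, 0.842 and 0.705, so the likeness rests in part on those libraries. CDKN2C ran most like ZWINT (0.941), ECSIT (0.919) and CENPK (0.913), and 0.937, 0.930 and 0.930 remained without the TGFB1 libraries. Its own OS group means were only 0.183 to 0.680 CPM, from as few as 1 UMI a library, while the genes searched had a mean of at least 10 CPM. The libraries share experiments and differ in depth and cell makeup, so these correlations are descriptions.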

How the data were processed

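Each library was deposited as raw UMI counts per gene and barcode, whole numbers with no normalization by the authors, per the file headers and values. Every deposited barcode held at least 500 UMIs. The submitters' processing notes name bcl2fastq, Cell Ranger 3.0.2, Scanpy and GRCh38. Cell Ranger 6.0.2 stands in the header of each untreated, OA and OA control matrix. Counts were summed over the kept cells of each library or cell class, with at least 50 cells (Python 3.11.15, scanpy 1.11.5), and CPM was taken over the shared genes. Sums were tested in edgeR 4.0.16 (R 4.3.3) with quasi-likelihood F tests, TMM factors, its default low count filter and Benjamini-Hochberg adjustment over all genes, called under 0.05. The 14 OS libraries entered 1 fit and the 5 ULA libraries another. Class comparisons had the library as block. The standard error is the log2 fold change over the square root of F. The script was tested on simulated data. Doublets were not removed in the values given. Scrublet's automatic threshold marked 0% of cells in most libraries (18.2% in day 34 ULA replicate 2), so an alternative removed the highest-scoring 2.75% to 10.7% of each library. DESeq2 1.42.0, other scalings and filters, class rules and left-out libraries were alternatives. The text names all members, though not each of them in every comparison. From each other list it names at most the 3 genes with the smallest adjusted p per comparison, exceptions being said to be such. Cell type markers, such as SERPINA1 with OA, were not all named by that rule. The members and lists were chosen with earlier results of these data known. Some results on genes outside the members are not reported here.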

Additional observations from a re-analysis of the deposited data

Results flagged for a closer look

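The TGFB1 change differed between collagen-positive and EPCAM-positive cells for 5 members, by the interaction test on log2 values: CDKN1A -2.05, CDKN2B -1.54, CDKN2A -1.46, GADD45B -1.34 and CDKN1C 1.05, collagen-positive minus EPCAM-positive. In each the collagen-positive change was nearer 0 or, for CDKN1A, of the other sign without a call (-0.25). With cells of both markers in both classes that CDKN1A change was 0.86 (adjusted p = 0.0972), and the difference between classes was -0.93. The class differences of CDKN1A and GADD45B were called in all 12 alternatives. Those of CDKN2A and CDKN2B each missed the threshold in 2 of 12, and that of CDKN1C in 5 of 12. By this interaction test 6.32% of 18747 genes were called. The TGFB1 change differed from the OA change in EPCAM-positive cells, by the contrast of both in 1 fit, for CDKN2A (3.72), CDKN2B (2.27), CDKN1C (-2.15) and MDM2 (0.81), in log2 units, TGFB1 minus OA, where 25.4% of 17527 genes were called. The first 3 were called under every alternative run, and MDM2 was at the threshold (adjusted p = 0.0499) and missed it in 16 of 18.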

How the results depend on the processing

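Over the alternatives run, single members that were called kept direction and call in 841 cases, missed the threshold in 98 and changed sign in 1, GADD45B between cell classes in ULA culture (-0.091 with cells of both markers in both classes). Members not called stayed so with the same sign in 981, were called in 53 and changed sign in 60. The calls of CDKN1A, CDKN2A, CDKN2B, CDKN1C and CDKN2D with TGFB1, in whole libraries and in EPCAM-positive cells, and of CDKN1A with OA held under all that were run. Genes called by other settings were as follows. For PA in whole libraries there were 54 by DESeq2, 17 with total counts, 162 with no low count filter and 16 with only the libraries compared. For PA in EPCAM-positive cells there were 47 by DESeq2 and 126 with no filter. For OA control against untreated there were 702 by DESeq2, 255 with total counts, 523 with no filter and 0 with only the libraries compared. For TGFB1 in collagen-positive cells there were 109 by DESeq2, 1 with DESeq2 size factors, with total counts and with only the libraries compared, 458 with no filter (3 members), 6 with the stricter cell filter and 664 with double-positive cells in both classes (4 members). That last rule left 3 members and 419 genes for the class difference in the TGFB1 change, and 5 members between classes in OS. For cycling cells in ULA there were 1418 by DESeq2 and 1391 (3 members) with the stricter cell filter. No filter gave 8 members for day 34, where 13.4% of genes were called, and only the libraries compared gave 7 members for OA in EPCAM-positive cells, where 54.1% of genes were. The cause of these shifts was not tested.

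Replicate numbers did not pair the libraries (correlation of deviations -0.40 for TGFB1, 0.18 for PA, 0.07 for OA and -0.55 for OA control against untreated). With a replicate block 4 genes were called for PA, 0 for OA control against untreated (28 with the numbers crossed), 0 genes and 0 members for day 34, 3 for PA in EPCAM-positive cells and 16 for TGFB1 in collagen-positive cells. For TGFB1 the crossed pairing called 4155 genes and the uncrossed 3144.

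Leaving out 1 library at a time gave these ranges of members and genes called. TGFB1 gave 6 to 8 and 1704 (without TGFB1 replicate 1) to 5554 in whole libraries, and 7 to 8 and 1888 to 5460 in EPCAM-positive cells. PA gave 0 members, with 0 to 20 and 0 to 28 genes. OA gave 2 members and 5171 to 6570 genes, and 1 to 2 and 3260 to 4469 in EPCAM-positive cells. OA control against untreated gave 0 and 0 to 164. Day 34 against day 21 gave 1 to 7 and 697 (without day 21 replicate 3) to 7166 (without day 34 replicate 2). The TGFB1 minus OA contrast gave 3 to 7 and 2832 to 5302. TGFB1 in collagen-positive cells gave 0 members and 0 to 1121 genes, the most without control replicate 2, and the class difference 2 to 5 and 632 to 956. Cell classes gave 6 to 9 and 7698 to 10580 in OS, and 7 to 9 and 9291 to 12600 in ULA. Cycling cells gave 8 and 5418 to 5932 in OS, and 2 to 6 and 969 (without day 21 replicate 1) to 2879 in ULA. A group left with 1 library was assumed to vary like the others. CDKN2C rested on 1 to 129 UMIs a library, and the part of depth in its calls was not tested.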
